A study of Mus musculus with 12 samples.

Results

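The expression of 10 genes of the fibroblast growth factor (FGF) pathway was followed in Pdgfra/GFP+ cells of the mouse brain and spinal cord. They were the receptor genes Fgfr1, Fgfr2 and Fgfr3, the inhibitor genes Spry1, Spry2, Spry4 and Spred1, the transcription factor genes Etv4 and Etv5, and the phosphatase gene Dusp6. The genes were chosen by name from what is known of the pathway, but with earlier results of these data already known. All 10 were found among the 47069 distinct gene identifiers of the table. Total RNA-seq was carried out on sorted cells in 4 groups of 3 libraries, taken from brain or spinal cord of embryos (embryonic day E13.5) or pups (postnatal day P7). All groups came from Pdgfra-H2BGFP knock-in mice, in which a nuclear green fluorescent protein is made under the Pdgfra promoter. The mice were heterozygous, so every group carried the knock-in on 1 Pdgfra allele. The study's methods state that forebrain was used as brain, that each library was a pool from several animals of both sexes, and that GFP protein outlasts Pdgfra expression into early oligodendrocyte differentiation. Embryonic tissue was dissociated mechanically and P7 tissue with papain, so age and dissociation cannot be told apart. Nothing in the labels says that the libraries of a group came from separate litters, and p-values measure only the spread between these libraries.

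Secreted FGF ligands bind receptor tyrosine kinases on the cell surface together with heparan sulfate. The activated receptor signals through adaptor proteins and RAS to the RAF, MEK and ERK kinases (the MAPK cascade). ERK activity switches on a set of genes that act back on the cascade: Sprouty and Spred proteins restrain RAS and RAF, and DUSP6 removes the activating phosphates from ERK. Etv4 and Etv5 encode ETS family transcription factors that are widely used as transcriptional readouts of FGF signalling. Capicua is a repressor of these ETS genes and is itself released from DNA by ERK activity. In the oligodendrocyte lineage FGF signalling is known for its part in precursor specification and proliferation, and FGFR1 and FGFR2 for their part in myelin growth, while platelet-derived growth factor acts on the same cascade through PDGFRA.

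Promoter sequences are shown for Dusp6, Spry1, Spry2 and an internal start of Etv5. These feedback genes were called higher with age in spinal cord and are read as targets of ETS factors or Capicua. Spry4, Spred1 and Etv4 were called higher there too, so the genes shown are a choice. Each sequence shown is the 250 bases before a RefSeq start site on GRCm38.p6, printed in the direction of transcription. Capitals mark the letters TGAATG or their reverse complement CATTCA. The other windows searched (below), among them those of Spred1 and the other Etv5 start, held no such letters and are not shown. Dusp6 lies on the plus strand (chr10:99262981-99263230), Spry1 on the plus strand (chr3:37639697-37639946), Spry2 on the minus strand (chr14:105896820-105897069) and the internal Etv5 start on the minus strand (chr16:22438369-22438618), within an intron of the GENCODE M21 models of Etv5.
Dusp6: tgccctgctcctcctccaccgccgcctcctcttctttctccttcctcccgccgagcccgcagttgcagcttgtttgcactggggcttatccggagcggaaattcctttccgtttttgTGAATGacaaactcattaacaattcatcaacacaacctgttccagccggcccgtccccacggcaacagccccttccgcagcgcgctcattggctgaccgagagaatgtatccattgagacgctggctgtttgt
Spry1: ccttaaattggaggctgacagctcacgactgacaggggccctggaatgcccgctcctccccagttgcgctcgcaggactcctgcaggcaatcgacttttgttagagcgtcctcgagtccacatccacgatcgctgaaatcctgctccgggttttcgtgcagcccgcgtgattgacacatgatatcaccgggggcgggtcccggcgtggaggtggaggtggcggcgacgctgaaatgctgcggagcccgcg
Spry2: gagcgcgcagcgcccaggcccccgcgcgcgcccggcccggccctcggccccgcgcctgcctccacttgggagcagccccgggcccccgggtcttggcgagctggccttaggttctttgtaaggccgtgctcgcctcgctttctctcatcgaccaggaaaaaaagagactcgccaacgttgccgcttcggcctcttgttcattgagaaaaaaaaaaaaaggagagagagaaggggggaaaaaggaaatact
Etv5, internal start: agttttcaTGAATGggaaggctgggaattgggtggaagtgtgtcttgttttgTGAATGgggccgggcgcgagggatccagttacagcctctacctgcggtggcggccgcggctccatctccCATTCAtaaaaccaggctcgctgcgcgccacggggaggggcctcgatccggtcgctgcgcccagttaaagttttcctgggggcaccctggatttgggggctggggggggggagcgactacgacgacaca

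RefSeq windows of 300 bases (250 before and 50 after the start) were searched for 7 of the 10 members, in 9 windows. Fgfr1 and Etv4 had no window, and Spry4 was left out of the search, so the counts below do not cover these genes. An ETS motif (CCGGAAG, both strands) was in 0 of these 9 windows and in 8.86% of all 32851 windows of that length. An octamer of the kind bound by Capicua (TGAATGNA, both strands) was in 0 of the 9 windows and in 3.82% of all windows. Its first 6 letters, TGAATG, were chosen as a further motif after the sequences were seen, and any octamer match also holds them. They were in 2 of the 9 windows, once in Dusp6 and at 3 places before the internal Etv5 start, where they begin at positions -242, -198 and -129 relative to it. The other Etv5 window held 0 matches of this core. In all windows the core was in 12.7%, and at 3 or more places in 0.170%. The core was chosen after the sequences were seen and 3 is the count at this Etv5 start, so these shares test nothing. A match of letters is a description of the sequence and not a measured binding site.

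The libraries held 12.6 to 38.8 M recovered reads, and the 6 P7 libraries (25.3 to 38.8 M) were all deeper than the 6 E13.5 libraries (12.6 to 19.9 M). E13.5 spinal cord replicate 3 stood apart, with 41.0% of its reads in protein-coding genes against 82.4% to 91.2% in the other 11 libraries and 31.1% of its reads in the single gene Gm42418. P7 replicates 1 and 2 were closer to each other than other replicates were, with a chi-square per gene of 2.46 in brain and 4.01 in spinal cord against 17.3 or more in all other pairs within a group, but they still differed by more than sampling noise and were kept as separate libraries. Deposited values were CPM, reads scaled to a common and rescaled library size, and for the 3 P7 brain libraries that size was 13.1% to 16.3% above the one that TMM scaling of the recovered reads gave. The median change of all 18319 genes tested was not at 0 in every comparison. It was -0.19 (log2) for P7 against E13.5 in brain, 0.12 for the same in spinal cord, -0.19 for brain against spinal cord at P7, -0.24 for the interaction of age with region, and between -0.06 and 0.05 in the other 3 comparisons. With TMM scaling the medians were -0.02, 0.12, -0.02 and -0.07 in the same order, the spinal cord value being the same under both.

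A list of 7 oligodendrocyte precursor markers was read in each group. It includes Pdgfra, whose promoter drives the GFP used for sorting, so a high sum was partly given by the sorting. In its single-cell data the paper found none of its postnatal precursor clusters at E13.5. The summed level of 7 such markers was 2507 to 3324 CPM in E13.5 brain, 2143 to 4000 in E13.5 spinal cord, 8773 to 9555 in P7 brain and 7485 to 7527 in P7 spinal cord, and 0 of the 7 were at 0 in any group. Sox10, a factor of the oligodendrocyte lineage, averaged 39.2 CPM ± 14.5 (SD, n = 3) in brain and 21.5 ± 3.8 in spinal cord at E13.5, against 421 ± 4.7 and 669 ± 47.3 at P7. A list of 10 markers of differentiating oligodendrocytes summed to 79.1 to 277 CPM over the E13.5 libraries, 4838 to 8017 in P7 brain and 22624 to 28606 in P7 spinal cord. A list of 7 pericyte and leptomeningeal markers summed to 2680 to 3835 CPM in E13.5 brain, 5481 to 5952 in E13.5 spinal cord and 654 to 1321 over the P7 libraries. Markers of radial glia and astrocytes (9 genes) summed to 1655 to 2047 CPM in E13.5 brain and 1274 to 1350 in E13.5 spinal cord. At P7 they summed to 1646 to 1998 CPM in brain and 1119 to 1241 in spinal cord. Markers of neurons (7 genes) summed to 731 to 932 CPM over the E13.5 libraries and 413 to 504 over the P7 libraries. Markers of microglia (6 genes, at most 70.9 CPM in any library) and endothelial cells (5 genes, at most 111) were low throughout. These mixtures differed with both age and region, and in bulk samples fewer cells of a type and less RNA per cell cannot be told apart.

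All 10 members passed the filter of 0.7 CPM in at least 3 libraries. The fewest reads behind any member's value were 35, for Etv4 in 1 E13.5 spinal cord library. Levels were compared between members per length of their merged exons in GENCODE M21, while reads had been counted on M8. In E13.5 spinal cord Fgfr2 (18.8 CPM per kb ± 2.6, SD, n = 3) and Fgfr1 (10.8 ± 2.0) came next after Spred1 (19.7 ± 1.8), and Spry4 (2.45 ± 0.22) and Etv4 (1.48 ± 0.41) were lowest. In E13.5 brain Dusp6 (28.5 ± 4.0) and Spred1 (26.8 ± 3.0) were highest and overlapped, Fgfr2, Fgfr1 and Fgfr3 lay between 9.49 and 12.2, and Etv4 (3.49 ± 0.57) was lowest. In P7 brain the receptors were the lowest of the 10, at 3.56 ± 1.2 for Fgfr2, 5.19 ± 0.38 for Fgfr1 and 4.93 ± 0.57 for Fgfr3. The 3 receptors overlapped each other there. Spred1 led at P7 in both regions, with 61.7 ± 1.8 in brain and 62.8 ± 2.2 in spinal cord.

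**Figure D1:**
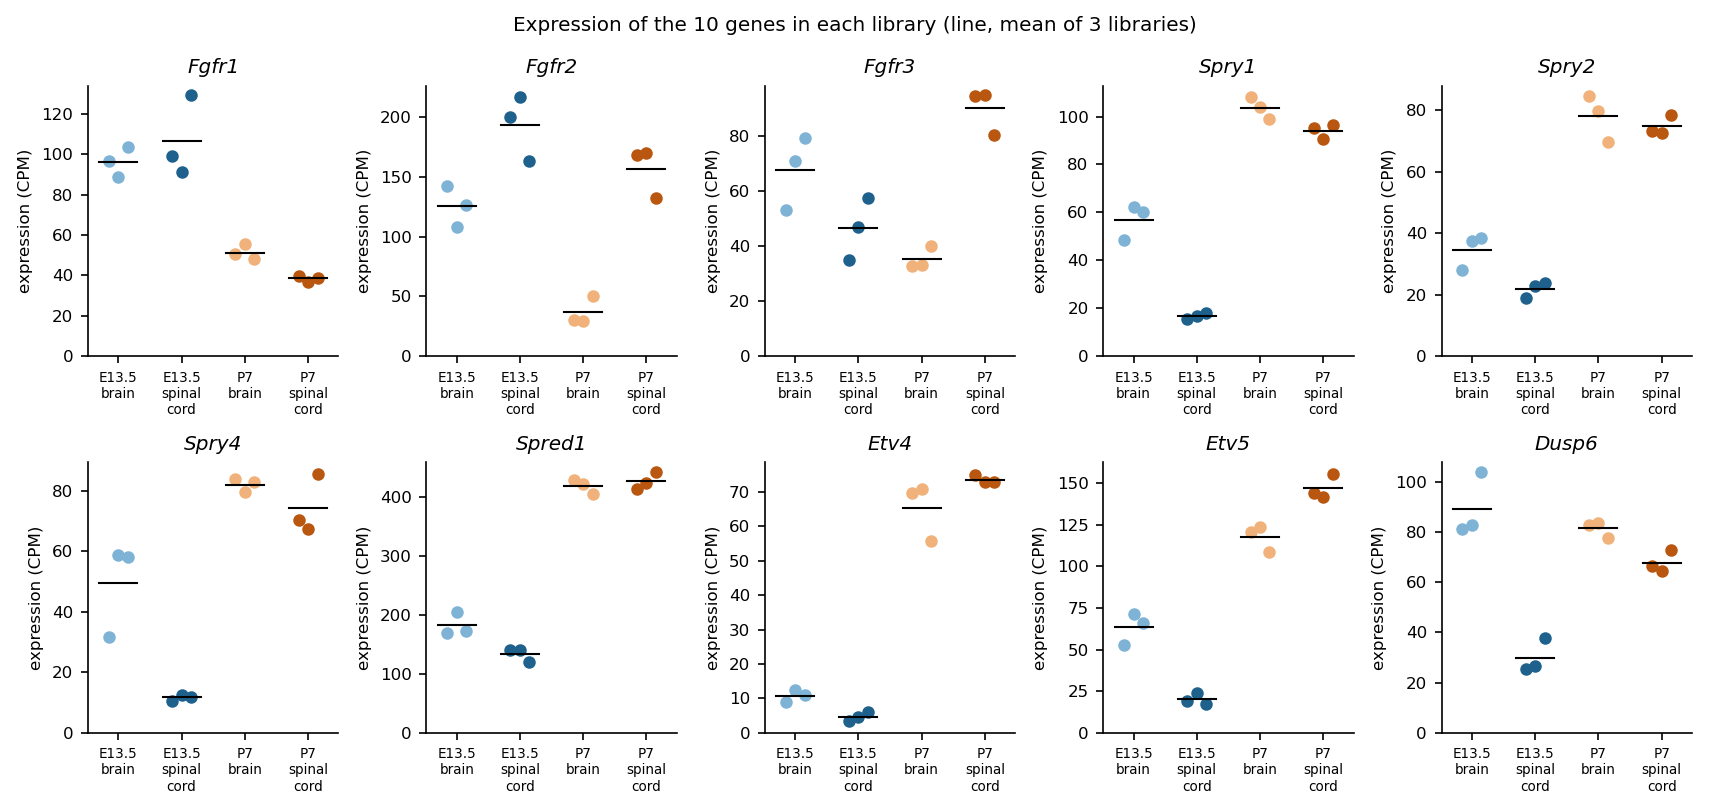
Expression of the 10 genes in each of the 12 libraries, in CPM on a linear axis that starts at 0 for each gene; points are libraries and the horizontal line is the mean of the 3 libraries of a group. Spry1, Spry4 and Etv5 are lowest in E13.5 spinal cord and high in both P7 groups, whereas Fgfr2 is lowest in P7 brain.

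Fgfr1 encodes the receptor that is most broadly expressed in the embryonic nervous system. The gene lies on chromosome 8 (25513654 to 25575718, plus strand, GRCm38 with GENCODE M21). It was at 96.3, 88.9 and 103.6 CPM in E13.5 brain and at 99.0, 90.9 and 129 in E13.5 spinal cord. At P7 it was 50.4, 55.4 and 48.1 CPM in brain and 39.8, 36.9 and 38.7 in spinal cord, below every E13.5 library. Over both regions Fgfr1 fell by 1.17 on the log2 scale (SE 0.08, limma adjusted p = 5.78e-08). Of all genes tested, 16.7% were called lower in this comparison, a call being a Benjamini-Hochberg adjusted p under 0.05 and a change of more than 2-fold. In spinal cord alone it fell by 1.44 (SE 0.12, limma adjusted p = 3.09e-07), where 18.2% of genes were called lower. In brain its change was -0.90 (SE 0.12), short of the required fold.

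Fgfr2, on chromosome 7 (minus strand), encodes a receptor that is also made by differentiating oligodendrocytes. It was at 143, 108 and 127 CPM in E13.5 brain and at 200, 217 and 164 in E13.5 spinal cord. Its P7 levels were 30.4, 29.3 and 50.7 CPM in brain and 169, 170 and 132 in spinal cord. The P7 brain libraries thus lay below all other libraries, and the P7 spinal cord libraries lay within the range of the E13.5 libraries. In both regions P7 replicate 3 was the library that departed from the others of its group. In GENCODE M21 Fgfr2 spans 130162451 to 133123350, and its exons share 314 bases with those of Ctbp2 on the same strand (mean 56.8 CPM). Reads were counted on M8, and how reads shared by these genes were treated is not stated. In brain Fgfr2 fell by 1.80 from E13.5 to P7 (SE 0.20, limma adjusted p = 5.88e-06), the same 16.7% of genes being called lower, and in spinal cord its change was -0.30 (SE 0.20, limma adjusted p = 0.188). The change averaged over the regions, -1.05 (SE 0.14, limma adjusted p = 1.79e-05), passed the fold threshold narrowly. It was not called with TMM scaling (-0.96), limma-voom (-0.96), edgeR (-0.94) or reads thinned to the smallest library (-0.99). It was not called either without P7 brain replicate 1 (-0.99), P7 brain replicate 2 (-0.98) or P7 spinal cord replicate 3 (-0.99).

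Fgfr3, which in the developing neural tube marks ventricular zone progenitors and later astrocytes, had opposite signs of change in the 2 regions (chromosome 5, 33721674 to 33737068, plus strand). It was at 53.2, 71.0 and 79.5 CPM in E13.5 brain and at 35.1, 47.1 and 57.7 in E13.5 spinal cord. Its P7 levels were 32.8, 33.1 and 40.0 CPM in brain and 94.9, 95.2 and 80.5 in spinal cord. The P7 spinal cord libraries were the 3 highest of the 12, and the P7 brain libraries overlapped those of E13.5 spinal cord. Its change with age was -0.92 in brain (SE 0.18, limma adjusted p = 0.000713) and 0.97 in spinal cord (SE 0.18, limma adjusted p = 0.000371). Neither reached 2-fold, and the average over both regions was 0.02 (SE 0.13). The brain change became a call without E13.5 brain replicate 1 (-1.08) or P7 brain replicate 3 (-1.01), and the spinal cord change without E13.5 spinal cord replicate 3 (1.13) or P7 spinal cord replicate 3 (1.05). The Fgfr3 exons share 998 bases with a transcript on the other strand, G630022F23Rik, which averaged 4.21 CPM and reached 10.3 in 1 library. Whether reads were counted by strand is not stated, so part of the smaller Fgfr3 values may belong to that transcript.

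As a share of the 3 receptors per length, Fgfr1 made up 31.0% ± 0.41 (SD, n = 3) in brain and 29.9% ± 5.2 in spinal cord at E13.5, and 38.3% ± 5.9 in brain and 12.4% ± 1.5 in spinal cord at P7. The P7 spinal cord libraries did not overlap any other group in this share. Fgfr2 made up 38.8% ± 5.0, 52.2% ± 8.0, 25.6% ± 5.5 and 47.8% ± 1.8 in the same order of groups. Fgfr3 made up 30.2% ± 5.4, 17.99% ± 3.8, 36.0% ± 0.55 and 39.8% ± 0.37. The summed level of the 3 receptors was 31.4 CPM per kb ± 2.3 in brain and 36.0 ± 1.5 in spinal cord at E13.5, and 13.7 ± 1.5 and 31.7 ± 3.2 at P7. P7 brain was the group apart in the sum, its highest library (15.4) being below the lowest of the others (28.0). The markers of differentiating oligodendrocytes differed in the same 2 groups (4838 to 8017 CPM in P7 brain and 22624 to 28606 in P7 spinal cord), and their part in this difference was not tested.

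Ratios within a library do not depend on its scaling, apart from the 0.5 CPM added before the log. The log2 ratio of Fgfr2 to Fgfr1 was 0.38 ± 0.16 in brain and 0.87 ± 0.47 in spinal cord at E13.5, and -0.52 ± 0.52 and 2.01 ± 0.22 at P7 (SD, n = 3 each). Averaged over the ages it was lower in brain by a log2 difference of -1.51 (two-sided exact permutation test of region within age, p = 0.01, adjusted p = 0.0267 over 8 ratio tests). The smallest p that the 400 arrangements allow is 0.005. The adjusted p was 0.0667 without E13.5 spinal cord replicate 2, 0.08 with P7 replicates 1 and 2 averaged and 0.125 under the replicate block, also by exact permutation. The 64 sign patterns of the block allow no p below 0.0313, so a ratio can hardly pass it after adjustment over 8 tests. The ratio of Fgfr3 to Fgfr1 was 1.19 higher at P7 (log2, exact permutation p = 0.055, adjusted p = 0.11), with most of that difference in spinal cord, where its mean was -1.19 ± 0.27 at E13.5 and 1.22 ± 0.16 at P7.

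**Figure D2:**
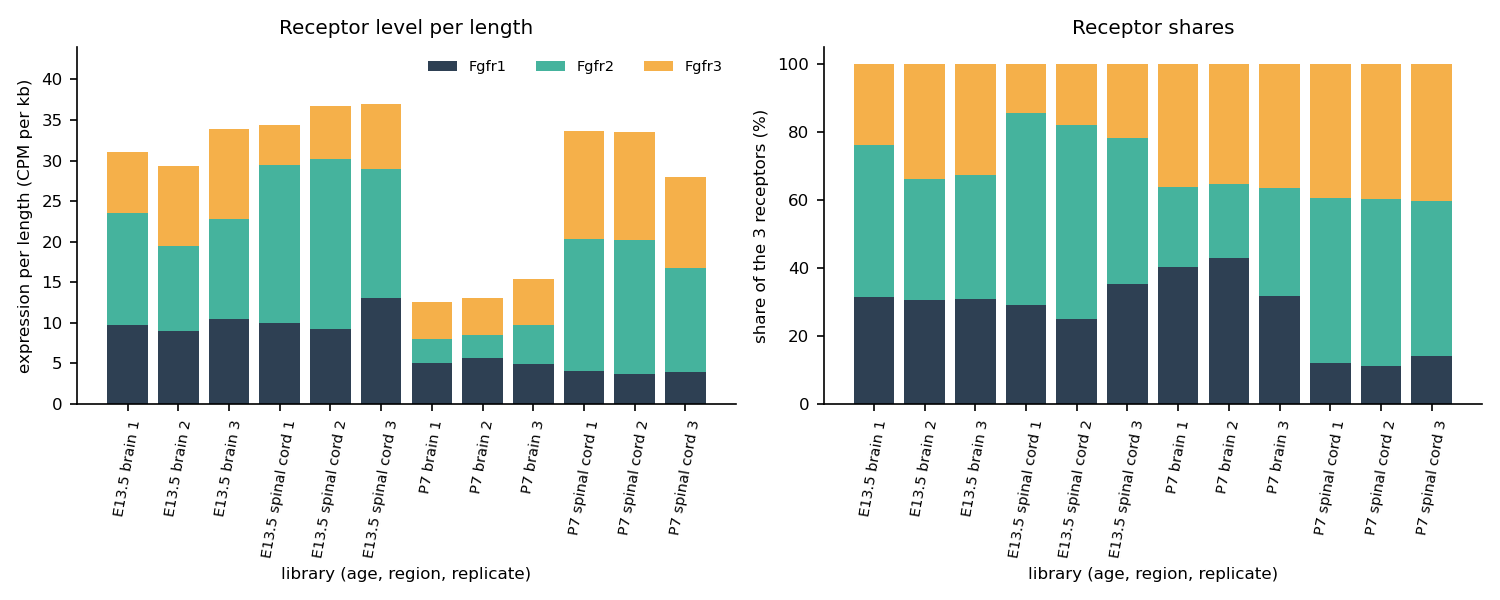
Left, level of the 3 receptor genes per length of exon (CPM per kb, stacked) in each library; right, the share of each in the sum of the 3 (%). The 3 P7 brain libraries have the smallest sums (12.6 to 15.4 CPM per kb), and Fgfr1 takes 11.2% to 14.0% of the sum in P7 spinal cord.

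The 4 inhibitor genes Spry1, Spry2, Spry4 and Spred1 all rose from E13.5 to P7 over both regions (4 of 4 called higher, against 12.7% of all genes tested). Their median change was 1.56 on the log2 scale, against -0.04 for all genes. In spinal cord again 4 of 4 were called higher (16.9% of all genes), with a median of 2.11. In brain 2 of 4 were called higher (11.0% of all genes), with a median of 1.02. Level and regional pattern set them apart from each other as follows.

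Spry1, the Sprouty gene best known as an antagonist of receptor tyrosine kinases in kidney development, was at 48.5, 62.1 and 60.3 CPM in E13.5 brain and at 15.7, 16.8 and 17.9 in E13.5 spinal cord. The P7 libraries held 108, 104 and 98.8 CPM in brain and 95.2, 90.8 and 96.4 in spinal cord. None of the 4 groups overlapped, and the order was P7 brain, P7 spinal cord, E13.5 brain and E13.5 spinal cord. Spry1 rose 5.48-fold in spinal cord (log2 2.45, SE 0.10, limma adjusted p = 7.61e-10). In brain it was 1.82-fold higher at P7 (log2 0.87, SE 0.10, limma adjusted p = 8.26e-06), which became a call with TMM scaling (log2 1.06).

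Spry4, which also restrains the cascade downstream of receptors, was at 31.5, 58.9 and 58.0 CPM in E13.5 brain and at 10.5, 12.6 and 11.8 in E13.5 spinal cord. The P7 libraries held 83.8, 79.5 and 82.8 CPM in brain and 70.3, 67.4 and 85.6 in spinal cord. The P7 groups overlapped each other and neither overlapped an E13.5 group, and E13.5 brain replicate 1 was well below the other 2 libraries of its group. Spry4 rose 6.14-fold in spinal cord (log2 2.62, SE 0.19, limma adjusted p = 1.14e-07). In brain it was 1.71-fold higher (log2 0.78, SE 0.19, limma adjusted p = 0.004), and with TMM scaling the log2 change was 0.97, still not a call.

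Spry2 and Spred1 had the smaller regional differences of the inhibitors at E13.5. Spry2 averaged 34.6 CPM ± 5.7 in brain and 21.8 ± 2.6 in spinal cord at E13.5, and 78.1 ± 7.6 and 74.8 ± 3.3 at P7 (SD, n = 3). It rose 2.25-fold in brain (log2 1.17, SE 0.13, limma adjusted p = 6.66e-06) and 3.39-fold in spinal cord (log2 1.76, SE 0.13, limma adjusted p = 1.05e-07). Spred1, whose protein binds neurofibromin and holds RAS in check, averaged 182 CPM ± 20.1, 134 ± 12.5, 418 ± 12.04 and 426 ± 14.6 in the same order of groups. Spred1 rose 2.30-fold in brain and 3.19-fold in spinal cord (log2 1.20 and 1.67, SE 0.10 each, limma adjusted p = 7.39e-07 and 2.33e-08). The log2 ratio of Spry1 to Spry2 was 0.72 ± 0.07 in brain and -0.36 ± 0.09 in spinal cord at E13.5, and 0.41 ± 0.08 and 0.33 ± 0.04 at P7. Averaged over the ages it was 0.58 higher in brain (two-sided exact permutation p = 0.01, adjusted p = 0.0267). Most of that difference lay at E13.5, and the ranges of the regions overlapped at P7. The adjusted p was 0.0533 without P7 brain replicate 3 or P7 spinal cord replicate 2, and 0.0667 without P7 spinal cord replicate 3. It was 0.0667 with P7 replicates 1 and 2 averaged and 0.167 under the replicate block, by exact permutation. As above, the block allows no unadjusted p below 0.0313.

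Both ETS genes rose with age over both regions, Etv4 by far the more. Etv4 (chromosome 11, 101769742 to 101785371, minus strand) was at 8.93, 12.4 and 11.1 CPM in E13.5 brain and at 3.34, 4.58 and 5.91 in E13.5 spinal cord. Its P7 levels were 69.8, 70.9 and 55.6 CPM in brain and 75.0, 72.9 and 72.8 in spinal cord. No 2 groups overlapped, and of all members Etv4 spanned the widest range, 22.5-fold between its lowest and highest library. It rose 5.84-fold in brain (log2 2.55, SE 0.17, limma adjusted p = 9.18e-08) and 14.8-fold in spinal cord (log2 3.89, SE 0.17, limma adjusted p = 1.71e-09). Over both regions its change of 3.22 stood above that of 98.7% of the genes tested.

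Etv5 (chromosome 16, 22381309 to 22439719, minus strand) was at 53.0, 71.4 and 66.2 CPM in E13.5 brain and at 19.1, 23.6 and 17.5 in E13.5 spinal cord. At P7 it was at 120, 123 and 109 CPM in brain and at 144, 142 and 156 in spinal cord. The groups again did not overlap, and P7 spinal cord was the highest. Etv5 rose 7.21-fold in spinal cord (log2 2.85, SE 0.13, limma adjusted p = 1.59e-09). In brain it was 1.86-fold higher (log2 0.89, SE 0.13, limma adjusted p = 5.58e-05), a call only when values were rescaled (log2 1.08 with TMM). The log2 ratio of Etv4 to Etv5 was -2.50 ± 0.02 in brain and -2.03 ± 0.47 in spinal cord at E13.5, and -0.85 ± 0.10 and -0.99 ± 0.08 at P7. It was 1.35 higher at P7 (two-sided exact permutation p = 0.005, the smallest possible, adjusted p = 0.0267). The adjusted p was 0.0667 with P7 replicates 1 and 2 averaged and 0.125 under the replicate block, in exact permutation tests with fewer arrangements. Under the block no unadjusted p can be below 0.0313.

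Dusp6 departed from the other feedback genes in brain. It was at 81.2, 82.8 and 103.9 CPM in E13.5 brain and at 83.1, 83.6 and 77.8 in P7 brain, and these groups overlapped. In spinal cord it was at 25.3, 26.6 and 37.8 CPM at E13.5 and at 66.4, 64.4 and 72.9 at P7. It rose 2.28-fold in spinal cord (log2 1.19, SE 0.14, limma adjusted p = 8.11e-06), while its change in brain was -0.12 (SE 0.14, limma adjusted p = 0.467), and 0.07 with TMM scaling. The spinal cord change was 0.90 and no call after quantile normalization. Averaged over both regions its change was 0.53 (SE 0.10), under the fold threshold.

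For immediate early genes the paper proposes either activation by neighbouring neurons or stress while cells are extracted. A list of 10 such genes summed to 208 to 594 CPM in E13.5 brain and 149 to 433 in E13.5 spinal cord. At P7 it summed to 88.9 to 117 CPM in brain and 223 to 268 in spinal cord. Against E13.5 of the same region this list was lower in P7 brain, whereas its P7 spinal cord range lay within that of E13.5. Over both regions 10 of 10 markers of differentiating oligodendrocytes were called higher at P7 (median log2 7.47), as were 6 of 7 of oligodendrocyte precursors (3.21) and 5 of 9 of radial glia and astrocytes, 2 of the 9 being lower, while 6 of 7 pericyte and leptomeningeal markers were called lower (-2.39). Their part in the age changes given here was not tested.

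**Figure D3:**
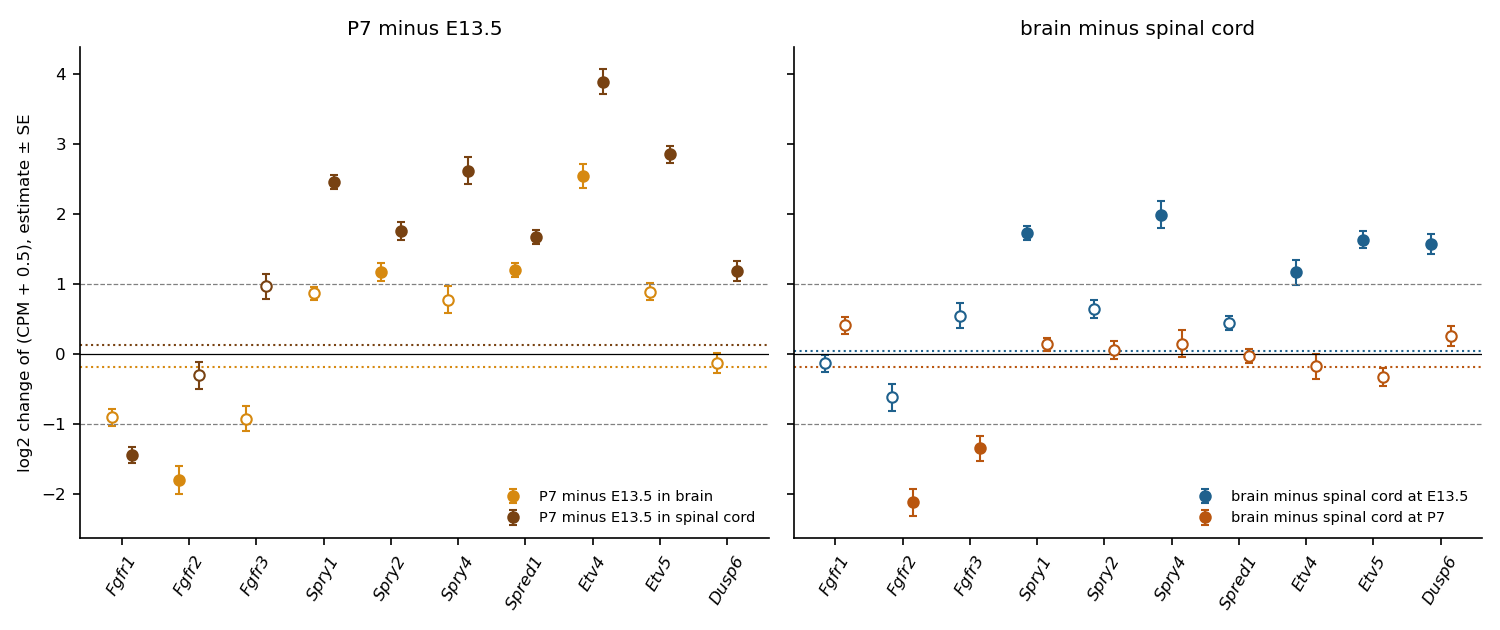
Log2 change of each gene with its SE in limma, left for P7 minus E13.5 in each region and right for brain minus spinal cord at each age; filled points are called, dashed lines mark a 2-fold change and dotted lines the median of all 18319 genes. The Spry, Etv and Dusp6 points for spinal cord lie above those for brain on the left, and on the right 5 genes are called higher in brain at E13.5 and 2 receptors lower in brain at P7.

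Between regions, 5 of the 7 feedback genes and 0 of the 3 receptors were called at E13.5, and 0 of 7 and 2 of 3 at P7. At E13.5 the 5 members were called higher in brain, as 3.53% of all genes were. Spry4 was 3.97-fold higher (log2 1.99, SE 0.19, limma adjusted p = 1.05e-05) and Spry1 3.31-fold (log2 1.73, SE 0.10, limma adjusted p = 1.15e-07). Etv5 was 3.11-fold higher (log2 1.64, SE 0.13), Dusp6 2.98-fold (log2 1.58, SE 0.14) and Etv4 2.25-fold (log2 1.17, SE 0.17), with limma adjusted p of 1.5e-06, 5.08e-06 and 0.00029. Without E13.5 spinal cord replicate 1 the Etv4 difference was 0.98 and no longer a call. Spry2 (0.65, SE 0.13) and Spred1 (0.44, SE 0.10) pointed the same way with adjusted p of 0.00219 and 0.00587 in limma, but were under 2-fold. Of the receptors, none was called, with log2 differences of -0.13 for Fgfr1, -0.62 for Fgfr2 and 0.55 for Fgfr3, and 5.17% of all genes were called lower in brain. Without the divergent E13.5 spinal cord replicate 3 the same 5 members were called higher.

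Some marker levels also differed between the regions at E13.5. Of 7 oligodendrocyte precursor markers 4 were called higher in brain and 0 lower, while their summed levels overlapped between the regions (2507 to 3324 CPM in brain and 2143 to 4000 in spinal cord). One of the 4, Olig2, which specifies oligodendrocyte precursors, averaged 76.7 CPM ± 31.6 in brain and 23.5 ± 7.8 in spinal cord at E13.5 (SD, n = 3). Pericyte and leptomeningeal markers were higher in every E13.5 spinal cord library (5481 to 5952 CPM) than in any E13.5 brain library (2680 to 3835 CPM). Radial glia and astrocyte markers were higher in every brain library (1655 to 2047 CPM) than in any spinal cord library (1274 to 1350 CPM). Neuron markers overlapped (731 to 930 CPM in brain and 750 to 932 in spinal cord). Their part in the difference was not tested.

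At P7, 0 members were called higher in brain (2.27% of all genes) and 2 were called lower (4.35% of all genes). Fgfr2 was 4.33-fold lower in brain (log2 -2.12, SE 0.20, limma adjusted p = 9.94e-06), which placed it at the lowest 1.09% of genes tested. Fgfr3 was 2.54-fold lower (log2 -1.34, SE 0.18, limma adjusted p = 0.000171). Fgfr1 went the other way, with a difference of 0.41 (SE 0.12, limma adjusted p = 0.0218) that did not reach 2-fold. For the 7 feedback genes the differences lay between -0.32 for Etv5 and 0.26 for Dusp6, all with adjusted p above 0.05 in limma (0.0738 to 0.881). With TMM scaling these 7 differences lay between -0.13 and 0.45, and those of Spry1 (0.33, adjusted p = 0.039) and Dusp6 (0.45, adjusted p = 0.044) passed the p threshold but not the fold. Etv5 and Spred1 passed the p threshold but not the fold in at least 1 other setting. The P7 libraries of the regions did not overlap for Spry1, Etv4, Etv5 and Dusp6, so small differences are not excluded.

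Averaged over both ages, Fgfr2 was lower in brain (log2 -1.37, SE 0.14, limma adjusted p = 1.69e-05), where 2.95% of all genes were called lower, and Spry4 was higher (log2 1.07, SE 0.14, limma adjusted p = 0.000111), where 1.26% were called higher. With TMM scaling Spry1 (1.03) and Dusp6 (1.01) were called as well, giving 3 higher and 1 lower, and Dusp6 was also called without E13.5 spinal cord replicate 3 (1.01). Without E13.5 brain replicate 2 or 3 the Spry4 difference was 0.99 or 1.00 and was not called.

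The change of the regional difference from E13.5 to P7 was tested as an interaction. It was negative and called for 7 of the 10 members, where 9.66% of all genes were called lower and 6.66% higher. The values were -1.96 for Etv5 (SE 0.18, limma adjusted p = 9.65e-06), -1.89 for Fgfr3 (SE 0.25, limma adjusted p = 0.00014) and -1.84 for Spry4 (SE 0.28, limma adjusted p = 0.000283). They were -1.59 for Spry1 (SE 0.14), -1.50 for Fgfr2 (SE 0.28), -1.34 for Etv4 (SE 0.25) and -1.31 for Dusp6 (SE 0.20), with limma adjusted p of 7.69e-06, 0.00119, 0.00112 and 0.000316. The median of all genes was -0.24 in this comparison, and with TMM scaling the 7 values were -1.77 to -1.12 and all stayed calls. In the same test 7 of 9 immediate early genes, 6 of 10 markers of differentiating oligodendrocytes and 4 of 7 oligodendrocyte precursor markers were called lower, and their part in the members' values was not tested. For Dusp6 median-ratio scaling gave -0.98 and quantile normalization -0.99, which were not calls. The 7 genes reached the same sign by different routes. The Spry, Etv and Dusp6 differences favoured brain at E13.5 and lay between -0.32 and 0.26 at P7. Fgfr2 was lower in brain at both ages and more so at P7, and Fgfr3 went from 0.55 to -1.34. For Fgfr1 (0.54, SE 0.17), Spry2 (-0.59, SE 0.18) and Spred1 (-0.47, SE 0.15) the interaction did not reach 2-fold.

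**Figure D4:**
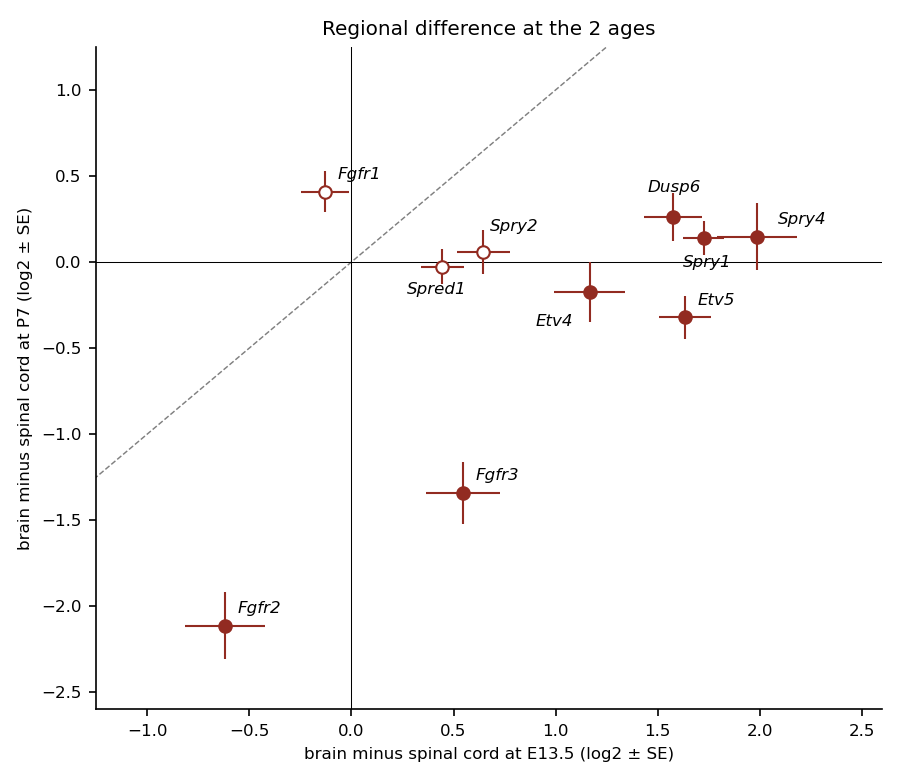
Difference between brain and spinal cord (log2, with SE) at E13.5 on the horizontal axis and at P7 on the vertical axis for the 10 genes; the dashed line marks equal differences and filled points are called in the test of the interaction. The 7 filled points lie below the line, with Fgfr2 and Fgfr3 at -2.12 and -1.34 at P7.

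Other genes of the pathway were taken from lists of 101 genes, all present in the table. Of the 21 genes of the RAS-ERK cascade, 0 were called higher with age over both regions (12.7% of all genes) and 1 lower (16.7% of all genes), with a median change of 0.18. The gene called was Shc1, an adaptor of receptor tyrosine kinases (log2 -1.55, SE 0.09). In spinal cord 5 of the 21 were called higher, namely Nras, Gab1, Mapk3, Map2k1 and Ptpn11 (log2 1.15 to 1.43), against 16.9% of all genes, and Shc1 was called lower (-1.66, SE 0.13). In brain 0 were called higher, against 11.0% of all genes. Mapk3, which encodes ERK1, was lower in brain than in spinal cord at P7 (log2 -1.74, SE 0.22, limma adjusted p = 0.000125), and Rps6ka2, encoding a kinase that ERK activates, differed by -1.05 (SE 0.14), or -0.87 and no call with TMM scaling. These 2 were the calls between regions at P7, 1 of them being lost without P7 spinal cord replicate 1 or 2, and at E13.5 0 of the 21 were called.

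Of 22 genes in a list of FGF ligands, which includes intracellular family members, 12 passed the filter. Of these 3 rose and 1 fell with age over both regions, where 12.7% of all genes were called higher and 16.7% lower. Fgf15, an FGF of the embryonic brain, fell (log2 -3.17, SE 0.15) from 6.07 CPM in brain and 2.85 in spinal cord at E13.5 to at most 0.02 CPM on average at P7. Fgf12 (log2 2.68, SE 0.10) and Fgf11 (1.60, SE 0.15) rose, both encoding intracellular family members that do not signal as secreted ligands. Fgf5, a secreted ligand, rose as well (1.36, SE 0.12), to 0.54 CPM in brain and 1.33 in spinal cord at P7. The changes of Fgf15 and Fgf5 depend on the 0.5 CPM added before the log, since each was near 0 at 1 of the ages. At E13.5 the genes of this list that were called were lower in brain, 4 of 12 where 5.17% of all genes were. They were Fgf1 (-2.79, SE 0.35), Fgf9 (-1.09, SE 0.20), Fgf10 (-1.01, SE 0.25) and the intracellular member Fgf12 (-1.03, SE 0.14). Without E13.5 spinal cord replicate 3, which stood apart, 1 gene of the list was called. At P7 the ligand called was Fgf7, at 0.48 CPM in brain and 1.89 in spinal cord (log2 -1.30, SE 0.18).

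Other genes act on receptor binding. Among 8 tested genes of other receptors, co-receptors and adaptors, Fgfrl1, a receptor-like protein without a kinase, rose (log2 2.02, SE 0.11), Flrt1 rose (1.24, SE 0.13) and Flrt2 fell (-1.95, SE 0.08). Flrt3 was the gene of this list called between regions at E13.5 (1.22 higher in brain, SE 0.12). Of 19 heparan sulfate genes 3 were called higher and 6 lower over both regions, beside the same 12.7% and 16.7% of all genes, so the share called higher was near that of all genes. The glypican gene Gpc5 (3.52, SE 0.14) and the syndecan gene Sdc3 (2.89, SE 0.09) rose most, and the glypican genes Gpc3 (-2.61, SE 0.13) and Gpc2 (-2.59, SE 0.09) fell most. Gpc5 also separated the regions at P7, at 90.8 CPM in brain and 15.2 in spinal cord (log2 2.53, SE 0.20), while at E13.5 it was lower in brain (-1.43, SE 0.20). Gpc3 was lower in brain at both ages (-1.79, SE 0.18, at E13.5 and -1.06, SE 0.18, at P7), Gpc6 was lower (-1.16, SE 0.10) and Gpc4 higher (1.18, SE 0.23) in brain at E13.5, and the P7 value of Gpc3 was no call with TMM scaling. Without P7 brain replicate 1 or P7 spinal cord replicate 3, 1 of the 2 heparan sulfate genes called at P7 was lost.

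Of 12 feedback inhibitors outside the 10 members, 3 were called higher with age over both regions (Dusp9, 2.64, SE 0.24; Spry3, 2.04, SE 0.13; Spred3, 1.24, SE 0.16) and 2 lower (Dusp4, -2.14, SE 0.09, and Lrig1, -1.91, SE 0.08), with a median of -0.14. The share called lower was that of all genes (16.7%), and 12.7% of all genes were called higher. At E13.5, where Spry1, Spry4 and Dusp6 were called higher in brain, 0 of these 12 were called in either direction, or 2 without E13.5 spinal cord replicate 3. At P7 Dusp9 was lower in brain (-1.02, SE 0.34), which was no call without E13.5 brain replicate 1 or 2, P7 brain replicate 1 or 2 or P7 spinal cord replicate 1 or 2. Of 10 other ETS and Capicua genes, Atxn1, whose product partners Capicua, was called higher with age (1.01, SE 0.06), a call that was lost without E13.5 brain replicate 2, E13.5 spinal cord replicate 3, P7 brain replicate 1 or P7 spinal cord replicate 3, and Etv1, the other member of their subfamily, was called higher in brain at E13.5 (1.30, SE 0.15). Of 6 tested genes known to be induced by ERK, Epha2 fell (-2.25, SE 0.13) and Ccnd1, encoding cyclin D1, rose (1.58, SE 0.12). Ccnd1 was also called higher in brain at E13.5 (1.56, SE 0.17).

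**Figure D5:**
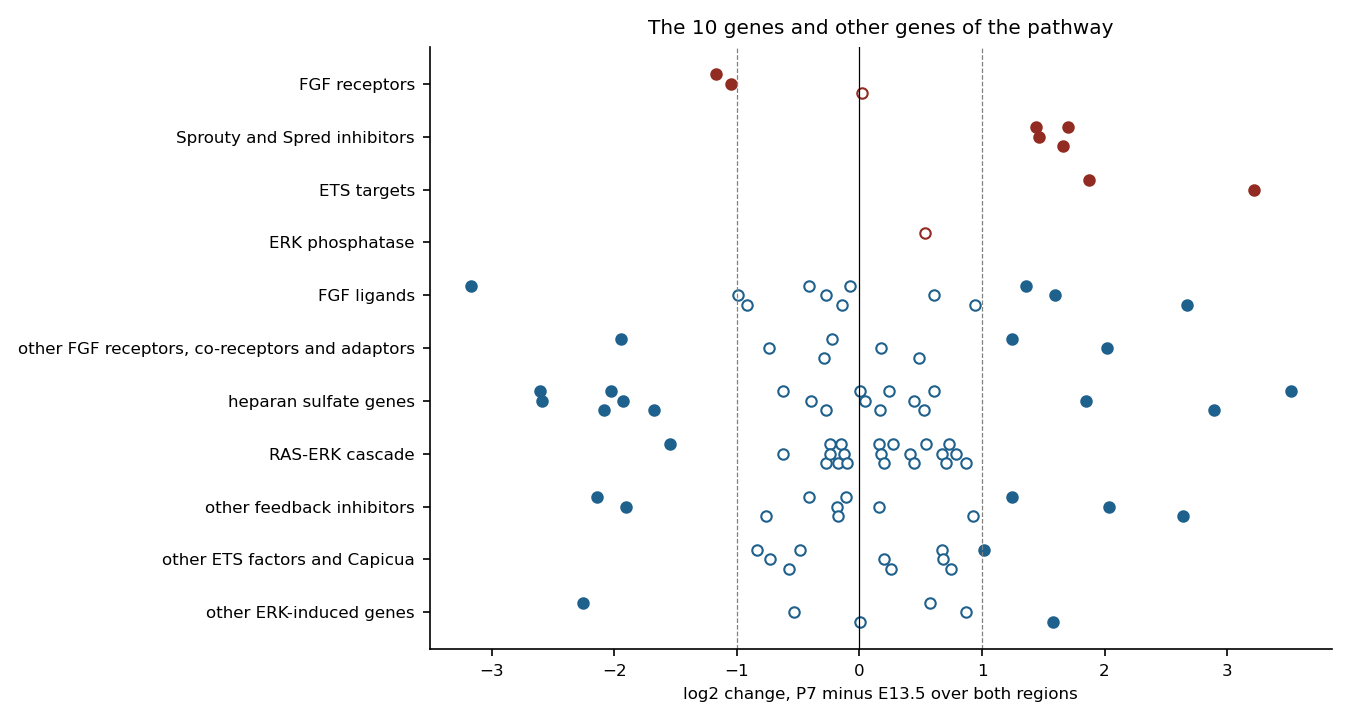
Log2 change from E13.5 to P7 over both regions for the 10 genes (red) and for the tested genes of the other pathway lists (blue); filled points are called and dashed lines mark a 2-fold change. The 4 inhibitor genes and both ETS genes lie between 1.44 and 3.22, whereas 20 of 21 RAS-ERK cascade genes are open points within the dashed lines.

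The pattern over the 12 libraries was compared among members as the root mean square difference of log2 levels after centring each gene. Of 45 pairs of members, the closest were Spry2 with Spred1 (0.17), Spry1 with Spry4 (0.18) and Spry1 with Etv5 (0.23). The most distant was Fgfr2 with Etv4 (2.36). Among 13704 tested protein-coding genes outside the members, the nearest to Spry4 were Sox2 (0.20), Ccnd1 (0.24) and Pcgf5 (0.29), and the same 3 were nearest to Spry1 (0.14 to 0.17), with medians over all genes of 1.15 and 1.06. Sox2, a factor of neural progenitors, was at 98.5 CPM in brain and 23.7 in spinal cord at E13.5, and at 170 and 139 at P7.

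The nearest genes to Etv4 were Prkg2 (0.20), Cspg4 (0.20) and Slc35f1 (0.23). Cspg4 encodes NG2, a proteoglycan used as a marker of oligodendrocyte precursors, and was at 126, 56.8, 781 and 756 CPM in E13.5 brain, E13.5 spinal cord, P7 brain and P7 spinal cord. The nearest to Etv5 was Sox6 (0.18) and to Dusp6 Sox5 (0.20), both SoxD factors of the same lineage, followed by Cdkn2c (0.23) and Pcgf5 (0.24) for Etv5 and by Alpl (0.24) and Calb2 (0.25) for Dusp6. For Spry2 they were Camk1 (0.12), Rftn2 (0.12) and Ncan (0.13), and for Spred1 Cstf2, Pou6f1 and Gpr27 (0.10 each).

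Among the receptors, Fgfr1 was nearest to Amigo1 (0.11), Celsr2 (0.12) and Zfp521 (0.13), and Fgfr2 to Cdh8 (0.23), Plekhg1 (0.24) and Kif6 (0.29). Plekhg1 was at 88.9, 167, 37.4 and 145 CPM in the 4 groups in the order above. The nearest to Fgfr3 were the ligand gene Fgf7 (0.20), which was close to the filter, Depdc1b (0.21) and Ywhaq (0.22). These distances describe 12 libraries that share age, region and depth, and the genes are not independent of each other.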

How the data were processed

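Total RNA-seq of Pdgfra/GFP+ cells was analysed in 12 libraries, 3 for each of 2 ages and 2 regions, grouped by sample title. As given in the study's methods and the submitters' processing notes, stranded libraries were aligned with STAR 2.5.0a to mm10 and counted on GENCODE M8 genes with featureCounts 1.5.0-p1, with reads of several locations shared fractionally and rounded; whether strand was used in counting is not stated. HISAT2 2.0.5 and StringTie 1.3.1c are also named there with no use given. The authors deposited CPM not logged, per rescaled library size. In 9 columns the sums fit CPM, and the 3 columns whose sums exceed what plain CPM allows were treated as deposited signal of the same construction. All values (100.0%) were whole multiples of 1 read to within a tolerance of 1e-06 of a read, so reads were recovered. Columns not used numbered 0.

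Symbols and positions came from GENCODE M21 on the same build (46574 of 47069 identifiers had a position). Genes with at least 0.7 CPM in 3 libraries (18319) were tested on log2(CPM + 0.5), a scale that understates the change of low genes, by limma 3.58.1 with an intensity trend, 1 mean per group and 7 contrasts, with Benjamini-Hochberg adjustment over all genes tested. The study used limma-voom, which was run here as an alternative on recovered reads. A call needed an adjusted p under 0.05 and over 2-fold. Ratios were tested by exact permutation over 400 arrangements. The 28 alternatives covered pseudocounts 0.1 and 1, filters, TMM, median-ratio and quantile scaling, edgeR 4.0.16, DESeq2 1.42.0, a replicate block, averaging P7 replicates 1 and 2, thinning of reads and leaving out each library. The count test of edgeR called 6553 genes for P7 against E13.5 where limma called 5378. Scripts were tested on simulated counts.

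All 10 members were named. From each pathway list, up to 2 genes with the largest change in each direction were named for age and for region at each age, with every gene needed for a count of 5 or fewer, and the 3 genes most alike to each member. The members, lists and tests were chosen with earlier results of these data known. A single read was worth 0.026 to 0.169 CPM, and such limits cover counting error only, PCR copies being no independent molecules.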

Additional observations from a re-analysis of the deposited data

Results flagged for a closer look

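For 7 genes the difference between brain and spinal cord was not the same at P7 as at E13.5 in a test of that change itself (limma, adjusted over all 18319 genes, with a change of more than 2-fold). The change in the log2 difference was -1.96 for Etv5 (SE 0.18), -1.84 for Spry4 (SE 0.28), -1.59 for Spry1 (SE 0.14), -1.34 for Etv4 (SE 0.25) and -1.31 for Dusp6 (SE 0.20). In these 5 genes the 3 E13.5 brain libraries all lay above the 3 E13.5 spinal cord libraries. For Fgfr3 it was -1.89 (SE 0.25), from 0.55 at E13.5 to -1.34 at P7, and for Fgfr2 -1.50 (SE 0.28), from -0.62 to -2.12. Markers of differentiating oligodendrocytes (22624 to 28606 CPM in P7 spinal cord and 4838 to 8017 in P7 brain) and pericyte and leptomeningeal markers (5481 to 5952 CPM in E13.5 spinal cord and 2680 to 3835 in E13.5 brain) differed between the same groups, and their part in the change was not tested.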

How the results depend on the processing

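The number of members called was within 1.5 times the reported one in 98 of 106 counts under other settings and in 82 of 84 with a library left out. The exceptions were brain minus spinal cord over both ages, where 4 in place of 2 were called with TMM rescaling, quantile normalization, limma-voom, edgeR or DESeq2 and 1 to 3 when a library was left out (1 without E13.5 brain replicate 2 or 3), and calls by adjusted p alone, which gave 9 in place of 4 for P7 minus E13.5 in brain, 8 in place of 2 for the regions over both ages and 9 in place of 5 for the regions at E13.5. Over all genes, adjusted p alone called 11227 (61.3%) in place of 5068 for age in brain and 13359 in place of 5378 for age over both regions. It called 4664 (25.5%) in place of 770 for region over both ages and 5979 (32.6%) in place of 1595 for region at E13.5. With rescaling or count tests, region over both ages gave from 738 (4.03%, TMM and quantile) to 1128 (6.16%, DESeq2) of all genes. Values near 0 changed sign. Fgfr3 over both regions went from 0.02 to -0.12 after quantile normalization and lay between -0.070 and 0.11 when libraries were left out. Dusp6 in brain went from -0.12 to 0.067 with TMM rescaling or limma-voom, 0.069 with median-ratio rescaling, 0.060 with edgeR and 0.061 with DESeq2. At P7, the brain difference of Spred1 went from -0.03 to 0.16 with TMM rescaling, limma-voom or edgeR, 0.21 with median-ratio rescaling or DESeq2 and 0.34 after quantile normalization, and that of Etv4 from -0.18 to 0.014 (TMM), 0.059 (median-ratio), 0.088 (quantile), 0.016 (limma-voom), 0.023 (edgeR) and 0.069 (DESeq2). With libraries left out in turn, Fgfr1 at E13.5 lay between -0.23 and 0.018, Spry2 at P7 between -0.0025 and 0.14, and the age difference of the Fgfr2 to Fgfr1 ratio between -0.027 and 0.22; the regional difference of that ratio lay between -1.65 and -1.41, and that of Spry1 to Spry2 between 0.56 and 0.61. The cause was not tested.

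With P7 replicates 1 and 2 averaged, the ratio differences were -1.40 (Fgfr2 to Fgfr1, adjusted p = 0.08), 0.60 (Spry1 to Spry2, adjusted p = 0.0667) and 1.32 (Etv4 to Etv5, adjusted p = 0.0667) in exact permutation tests with fewer arrangements. The replicate numbers are not stated to mark shared animals. Deviations of same-numbered libraries correlated by 0.27 on average between the regions at E13.5 (lowest 0.08) and by 0.03 at P7, so the numbers were not taken to pair them. With the replicate block the members called numbered as without it, namely 8, 4 and 8 for age (averaged, brain, spinal cord), 2, 5 and 2 for region (averaged, E13.5, P7) and 7 for the interaction. The 3 ratio differences under the block (-1.51, 0.58 and 1.35) no longer passed, with adjusted p of 0.125, 0.167 and 0.125 in exact permutation tests whose smallest unadjusted p is 0.0313. Depth limits Etv4 and Spry4 in E13.5 spinal cord most, with as few as 35 and 70 reads.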

Other observations

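Genes of the other pathway lists were also tested for a change of the regional difference between E13.5 and P7, where 9.66% of all genes were called lower and 6.66% higher. Of the 21 RAS-ERK cascade genes, 4 were called lower and 0 higher, namely Mapk3 (log2 -1.50, SE 0.32), Nras (-1.45, SE 0.17), Gab1 (-1.26, SE 0.15) and Rps6ka2 (-1.004, SE 0.19, no call with TMM scaling). Of the 12 other feedback inhibitors, Dusp9 (-1.67, SE 0.49) and Dusp7 (-1.23, SE 0.22), both phosphatases of MAP kinases, were called lower. The ETS gene Etv1 (-1.21, SE 0.21) and the ERK-induced genes Ccnd1 (-1.68, SE 0.25) and Myc (-1.02, SE 0.24, no call with TMM scaling) were called lower as well. In the ligand list Fgf1 (2.05, SE 0.50) and Fgf12 (1.37, SE 0.19) were called higher and Fgf7 (-1.50, SE 0.26) lower. These genes share libraries with the members, and the lists were described by their counts only.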
